A study of Rattus norvegicus with 36 samples.

Results

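The genes described here encode the proteins of the mitochondrial ribosome. All genes whose single symbol in the probe annotation begins with Mrpl or Mrps were taken, which gave 73 of the 14217 genes with a single symbol on the array. Of these, 46 carry Mrpl symbols, given to proteins of the large subunit, and 27 carry Mrps symbols, given to those of the small subunit, although Mrps18a and Mrps30 are now placed in the large one. Counts by symbol below follow the names. The 73 genes are read by 97 probe sets, and each gene was represented by its probe set of highest mean log2 signal over the 36 arrays. The comparison set was the 42 genes beginning with Nduf, most of which encode subunits of complex I of the respiratory chain or factors that assemble it. Ndufa4, now placed in complex IV, and its relative Ndufa4l2 are also among them.

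Left soleus muscles came from adult female Sprague Dawley rats, 16 weeks old when the study began, with 6 rats per group and 1 array per rat. Controls (CTR) were uninjured and age-matched, and the methods describe no sham surgery for them. Injured rats also had anesthesia, a laminectomy and analgesics, and the methods give experimental animals a dough diet. Differences from CTR cannot tell these apart from the cord injury. The SCI3d, SCI8d and SCI14d groups were untrained rats collected 3, 8 or 14 days after a moderate contusion of the thoracic spinal cord, an incomplete injury. The SCI8d + TM and SCI14d + TM groups had the same injury and walked on a treadmill in sessions of 20 min from day 7, the first for 3 sessions and the second for 5 days with 2 sessions a day, and their muscles were taken 8 h after the last session. The controls did no treadmill work, so training was set against injured, untrained rats of the same day. Whole muscle was profiled, so fewer cells of a type and less RNA per cell cannot be told apart.

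The mitochondrial ribosome translates the few proteins encoded in mitochondrial DNA, all of them core subunits of the respiratory chain or of ATP synthase. Its own proteins are encoded in the nucleus, made in the cytosol and imported. Part of them descend from bacterial ribosomal proteins and the rest were added in mitochondria. The soleus is a slow, oxidative postural muscle, in which this machinery serves a large mitochondrial mass. Of the genes described here, 44 have a bacterial homolog and 29 are specific to mitochondria. All 73 had a mean log2 signal above the value that 40% of the probe sets fell under, with means between 9.45 and 13.67. Mrpl17, Mrpl54 and Mrpl15 were the brightest, and Mrpl38, Mrps27 and Mrpl39 the dimmest, although signals of different probe sets do not rank transcripts.

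Slow fiber markers (Myh7, Tnni1, Tnnt1, Tnnc1, Myl2, Myl3 and Atp2a2) were measured for 7 of 7 genes, and their summed signal ran from 341788 to 499285 on the control arrays and from 194435 to 401884 on the SCI14d arrays. None of the 7 passed the test against CTR on any day, and their median log2 fold change was -0.10 on day 3, 0.02 on day 8 and -0.34 on day 14. Median log2 fold changes on days 3, 8 and 14 were 0.90, 1.10 and 1.02 for 6 fast fiber genes, 1.96, 1.77 and 0.74 for 4 blood genes and -1.83, -1.33 and -1.05 for 6 adipocyte genes. The fast fiber genes did not move alike. Mean signals of Atp2a1, Tnni2 and Tnnt3 were above CTR on each day, and that of Myh2 went both ways. The mean signal of Myh1 fell from 11046 in CTR to 5645, 4804 and 5663. Myh4 had a median signal of 105 in CTR and of 363, 632 and 3272 on days 3, 8 and 14, with overlapping ranges. Its CTR mean of 1409 was far above that median, with a highest control array of 7924. On the control arrays the fast fiber mean ran from -1.36 to 1.97 on the log2 scale. The other medians were as follows. They were -0.30, 0.64 and 0.73 for 8 fibroblast genes, 0.10, 0.17 and 0.51 for 10 macrophage genes and -0.20, -0.42 and -0.12 for 6 endothelial genes. Their part in the values below was not tested. On individual arrays, the 3' to 5' ratio of the Gapdh control probe sets, a sign of RNA degradation, was between 1.02 and 1.61, and 3 arrays were above 1.3 (CTR replicate 3, SCI14d replicate 4 and SCI14d + TM replicate 1).

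Averaged over the 73 genes, the mitoribosomal transcripts were lower than control in all 5 injured groups. The mean over the genes on each array, relative to the control mean on the log2 scale, was -0.19 ± 0.16 (SD, n = 6) in SCI3d, -0.27 ± 0.12 in SCI8d and -0.31 ± 0.24 in SCI14d. In the trained groups it was -0.34 ± 0.11 in SCI8d + TM and -0.12 ± 0.17 in SCI14d + TM. The control arrays ran from -0.22 to 0.14 with a median of 0.04, and the SCI8d + TM arrays from -0.48 to -0.20. SCI14d ran from -0.61 to 0.09 and SCI14d + TM from -0.36 to 0.09, so these groups overlapped each other and the controls. Single arrays stood apart within their groups. CTR replicate 3 was the lowest control, at -0.22, and SCI8d replicate 1 (-0.04), SCI3d replicate 3 (0.09) and SCI14d replicate 2 (0.09) were the highest arrays of theirs. SCI14d replicate 4 was the lowest array of the series, at -0.61, with SCI14d replicate 3 next in its group at -0.44. It also had the lowest Nduf mean (-0.86) and slow fiber signal (194435), a macrophage marker mean of 1.43 and a Gapdh ratio of 1.35. On CTR replicate 3, 65 of the 73 genes lay under their control mean, against 8 on CTR replicate 2. The genes thus moved together on single arrays, and counts of genes by direction below are not counts of independent results.

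**Figure D1:**
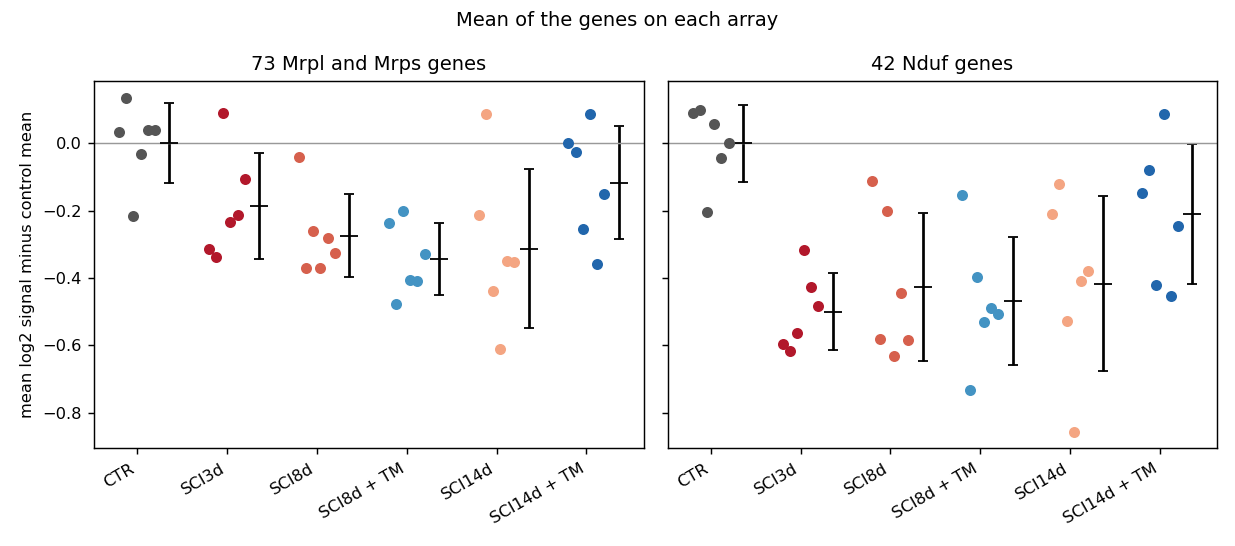
Mean log2 signal of the 73 Mrpl and Mrps genes (left) and of the 42 Nduf genes (right) on each of the 36 arrays, minus the mean of the 6 control arrays; points are arrays in replicate order and bars are the group mean ± SD. The SCI8d + TM arrays lie between -0.48 and -0.20 in the left panel, and the SCI14d and SCI14d + TM arrays overlap.

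The first question was how these transcripts differed from control on day 3 after injury. Relative to CTR, 15 of the 73 genes were lower and 3 were higher in SCI3d at an adjusted p under 0.05 (limma, Benjamini-Hochberg over 31042 probe sets), and 55 did not pass. Over all probe sets, 9.24% were called lower and 7.22% higher. All 73 genes belong to the brighter 60% of probe sets. In a separate fit and adjustment of that 60% alone, 15.8% were lower and 12.7% higher. In the fit of all probe sets, the share of mitoribosomal genes called lower was 20.5%, close to that bright share, and the share called higher was 4.11%. These shares and the bright ones are not of the same fit. The median log2 fold change over the 73 genes was -0.19, with quartiles of -0.37 and 0.01, beside -0.04 over all probe sets. By symbol, 10 Mrpl and 5 Mrps genes fell. The 3 genes that rose all have a bacterial homolog, as do 44 of the 73.

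**Figure D2:**
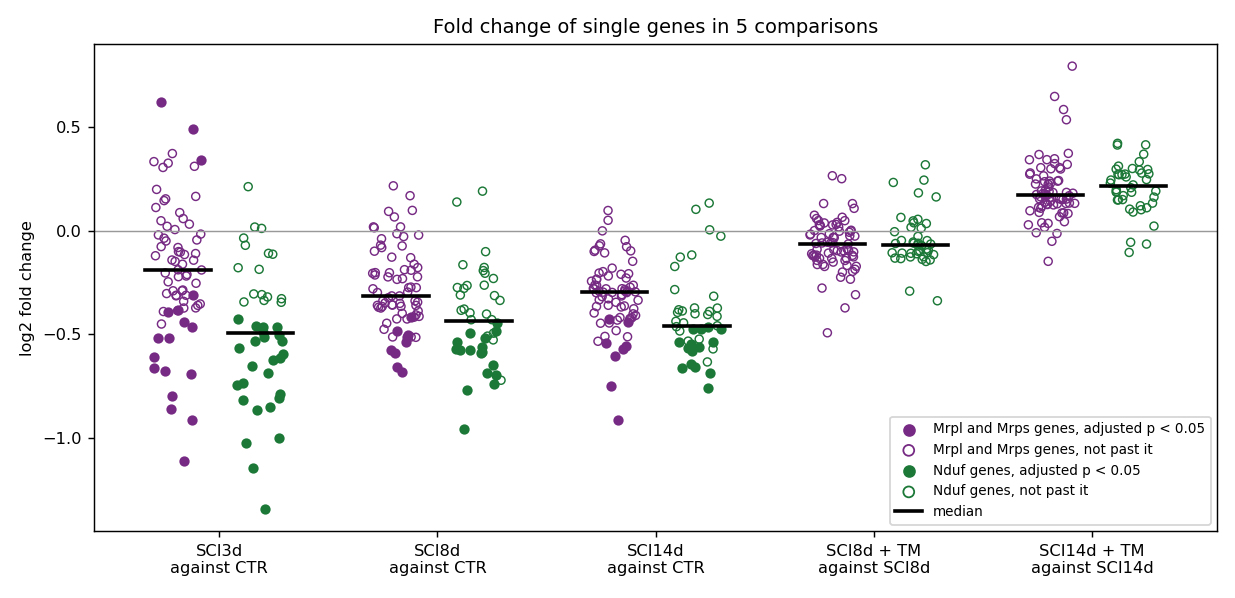
Log2 fold change of each Mrpl or Mrps gene (purple) and each Nduf gene (green) in 5 comparisons; filled points passed an adjusted p of 0.05 and black lines are medians. On day 3 the Mrpl and Mrps genes spread from -1.11 to 0.62 around a median of -0.19, and no gene of either set is filled in the comparisons with training.

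Mrpl40, a large-subunit protein with no bacterial counterpart (probe set 1388517_at), had the largest fall on day 3. Its signal was 4623, 6006 and 6778 in CTR (lowest, median and highest array) and 2136, 2922 and 3135 in SCI3d. No SCI3d array reached the lowest control, and the fall was 1.11 on the log2 scale (SE 0.17, adjusted p = 1.11e-05, limma). A second, dimmer probe set for Mrpl40 fell by 2.03 (SE 0.22, adjusted p = 5.90e-08, limma), so both showed the fall and differed in its size.

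Mrpl18, whose bacterial counterpart binds the 5S ribosomal RNA (probe set 1399058_at), fell by 0.92 on the log2 scale (SE 0.13, adjusted p = 4.08e-06, limma). Its signal was 4542, 5386 and 5891 in CTR and 2170, 2877 and 3607 in SCI3d, again without overlap. Mrps16, a small-subunit protein (probe set 1398946_at), went from 3950, 4963 and 5520 in CTR to 2197, 2582 and 3267 in SCI3d. These ranges did not overlap, and the fall was 0.86 (SE 0.13, adjusted p = 1.39e-05, limma). Mrpl13 and Mrpl48, both of the large subunit, followed by p-value. Mrpl13 was 3028, 3321 and 3440 in CTR and 1722, 2013 and 2439 in SCI3d, without overlap, and fell by 0.68 (SE 0.13, adjusted p = 0.000227, limma). Mrpl48 was 3130, 3237 and 3669 in CTR and 1637, 1855 and 2529 in SCI3d, also without overlap, and fell by 0.80 (SE 0.15, adjusted p = 0.000230, limma). On day 8 Mrpl48 ranged from 2134 to 4038, around the controls, and did not pass. The other 10 genes called lower on day 3 were Mrpl12, Mrpl44, Mrpl16, Mrps18c, Mrps11, Mrpl3, Mrps26, Mrpl2, Mrpl54 and Mrps21, at log2 fold changes of -0.69 to -0.31. Mrpl12 is the protein of the ribosomal stalk, to which translation factors bind. Without regard to the test, 9 of the 73 genes lay below every control array on day 3, beside 4.31% of all probe sets, and 1 lay above every control, beside 3.42%. Of the brightest, Mrpl15 was below all controls at -0.37 but did not pass (adjusted p = 0.0506, limma). The dim Mrpl38, Mrps27 and Mrpl39 passed on none of days 3, 8 and 14, at -0.35 to -0.10.

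The 3 genes called higher went the other way on day 3. Mrpl17, a large-subunit protein (probe set 1369013_a_at), had a signal of 10097, 12370 and 12716 in CTR and 14660, 17012 and 19625 in SCI3d. All 6 SCI3d arrays were above the highest control, and the rise was 0.49 on the log2 scale (SE 0.12, adjusted p = 0.00494, limma). Mrps2, of the small subunit (probe set 1372116_at), was 1110, 1351 and 1603 in CTR and 1276, 1984 and 3302 in SCI3d. Here the groups overlapped and the SCI3d arrays were spread widely, and the rise was 0.62 (SE 0.15, adjusted p = 0.00432, limma). Mrps2 did not pass by the methods' t-test with an adjustment added (adjusted p = 0.0814). Mrpl32, a large-subunit protein that a mitochondrial protease must trim before it can be assembled in yeast and mouse, was 2139, 2594 and 3036 in CTR and 2920, 3239 and 3776 in SCI3d. The groups overlapped slightly and the rise was 0.34 (SE 0.12, adjusted p = 0.0413, limma). Mrpl32 no longer passed without any one of CTR replicates 1, 3 or 4 or SCI3d replicates 2, 3, 4 or 6, with adjusted p-values between 0.0542 and 0.116.

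**Figure D3:**
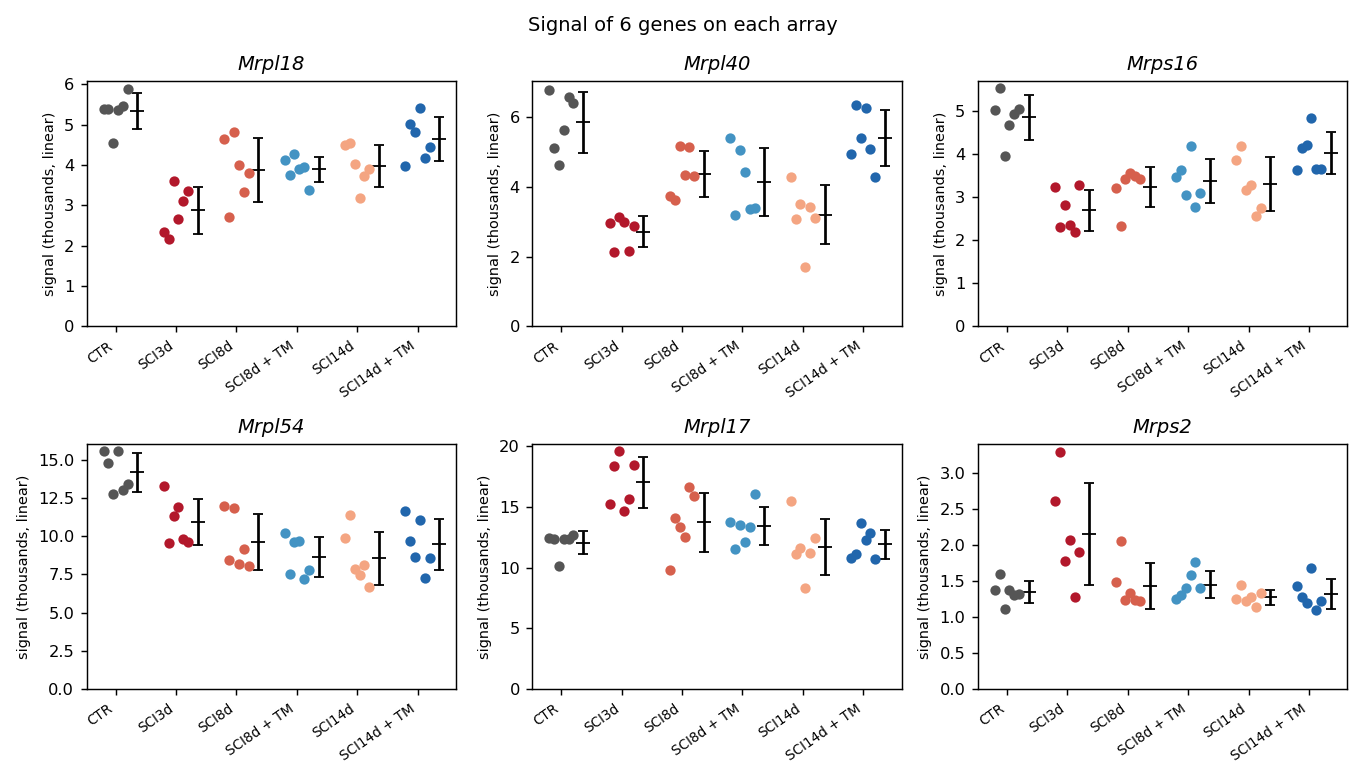
Signal (linear scale) of Mrpl18, Mrpl40, Mrps16, Mrpl54, Mrpl17 and Mrps2 on each of the 36 arrays by group; points are arrays in replicate order and bars are the mean ± SD. Mrpl40 lies between 2136 and 3135 in SCI3d, under all controls, whereas Mrpl17 lies between 14660 and 19625, above all of them.

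Promoter sequences from RefSeq (build GRCr8, 250 bases before to 50 after the annotated start) were matched for 59 of the 73 genes. NRF-1, GABP (an ETS factor), YY1 and the estrogen-related receptor ERR are known to act on nuclear genes for mitochondria, and their core motifs were searched on both strands. The NRF-1 core (GCGCA, any base, then GCGC) was found in 9 of the 59 promoters (15.3%), beside 4.71% of 27457 promoters in all and 8 of 40 Nduf promoters. The ETS motif (CCGGAAG) was found in 20 (33.9% against 9.22%), YY1 (AAGATGGC) in 14 (23.7% against 3.44%) and ERR (AAGGTCA) in 3 (5.1% against 4.37%). No matches of different motifs overlapped each other, and 25 of the 59 promoters held none of the 4. The median GC content was 56.0%, against 52.3% over all promoters, and its part in these shares was not tested. Among the 20 promoters of genes called lower on at least 1 day, 3 held NRF-1, 8 ETS, 3 YY1 and 1 ERR, and among the other 39 promoters the counts were 6, 12, 11 and 2.

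The promoters of 2 genes that rose on day 3 (Mrpl17 and Mrpl32) and 2 that fell (Mrpl18 and Mrpl40) are printed 5' to 3' on the strand of the gene, with matches to the 4 motifs in capitals. Mrpl17 is on the minus strand at chr1:169575650-169575949. The other 3 are on the plus strand, Mrpl32 at chr17:55260401-55260700, Mrpl18 at chr1:50384702-50385001 and Mrpl40 at chr11:95637501-95637800.
Mrpl17: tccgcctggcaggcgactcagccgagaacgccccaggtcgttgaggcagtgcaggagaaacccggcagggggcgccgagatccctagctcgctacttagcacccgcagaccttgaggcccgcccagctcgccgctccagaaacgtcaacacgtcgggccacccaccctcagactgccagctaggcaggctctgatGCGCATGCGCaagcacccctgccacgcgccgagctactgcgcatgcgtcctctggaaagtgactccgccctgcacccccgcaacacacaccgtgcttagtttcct
Mrpl32: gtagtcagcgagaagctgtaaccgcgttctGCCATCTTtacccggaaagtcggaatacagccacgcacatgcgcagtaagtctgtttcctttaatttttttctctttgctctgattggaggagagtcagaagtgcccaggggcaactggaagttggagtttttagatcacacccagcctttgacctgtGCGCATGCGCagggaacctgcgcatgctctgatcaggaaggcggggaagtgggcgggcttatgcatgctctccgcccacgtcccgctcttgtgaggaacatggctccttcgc
Mrpl18: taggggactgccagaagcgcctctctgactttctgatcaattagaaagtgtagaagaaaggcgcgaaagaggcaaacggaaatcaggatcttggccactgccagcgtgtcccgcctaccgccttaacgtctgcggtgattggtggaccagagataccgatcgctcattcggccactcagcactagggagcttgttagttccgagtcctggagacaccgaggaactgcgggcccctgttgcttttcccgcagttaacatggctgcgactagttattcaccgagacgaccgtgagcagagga
Mrpl40: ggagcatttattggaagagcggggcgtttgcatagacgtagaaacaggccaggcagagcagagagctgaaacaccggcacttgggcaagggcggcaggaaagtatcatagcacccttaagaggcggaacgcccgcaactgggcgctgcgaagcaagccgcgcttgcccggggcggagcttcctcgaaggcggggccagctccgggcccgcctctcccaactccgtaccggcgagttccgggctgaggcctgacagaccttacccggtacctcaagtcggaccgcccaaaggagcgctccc
Both of these genes that rose carry the NRF-1 letters, at position -55 from the start in Mrpl17 and -62 in Mrpl32, which also holds YY1 on the reverse strand. The letters were also found in Mrpl44 and Mrps26, which fell on day 3, and in 5 further genes. Mrps2, the third gene called higher, had no match to any of the 4 motifs, nor had Mrpl18, Mrpl40, Mrps16 or Mrpl54. These pairs were chosen after their values were seen, and a match of letters is a description, not a site.

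Many of these genes start close to a gene on the opposite strand. A head-to-head neighbour within 1000 bases was annotated for 18 of the 59 (30.5%), beside 10.4% of all promoters and 16 of 40 Nduf genes. In 14 cases the neighbour was measured, Mrpl46 and Mrps11 being each other's neighbour. Mrpl32 starts 210 bases from Psma2, which encodes a proteasome subunit. On day 3 Mrpl32 rose by 0.34 and Psma2 by 1.05 on the log2 scale (SE 0.10, adjusted p = 1.56e-08, limma), and neither passed on days 8 or 14. Mrpl18 starts 425 bases from Tcp1, which encodes a subunit of the cytosolic chaperonin CCT. There the directions were opposite, since Mrpl18 fell by 0.92 while Tcp1 rose by 0.58 (SE 0.14, adjusted p = 0.00379, limma). Mrpl40 starts 186 bases from Hira, a histone chaperone, which had a log2 fold change of -0.24 that did not pass (adjusted p = 0.191, limma). Mrpl47 (-0.39, not passing) and the complex I gene Ndufb5 (-0.82, adjusted p = 0.000529, limma) start 244 bases apart. Mrpl2 (-0.39, adjusted p = 0.0455, limma) and its neighbour Klc4 (-0.90, adjusted p = 0.000146, limma) both fell. Ncapd2 rose by 0.86 (adjusted p = 0.00313, limma) beside Mrpl51, which was at -0.08 and did not pass. Mrps11 fell by 0.52 (adjusted p = 0.00766, limma) beside Mrpl46 (-0.21), which did not pass. The pairs named here were chosen after their values were seen.

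**Figure D4:**
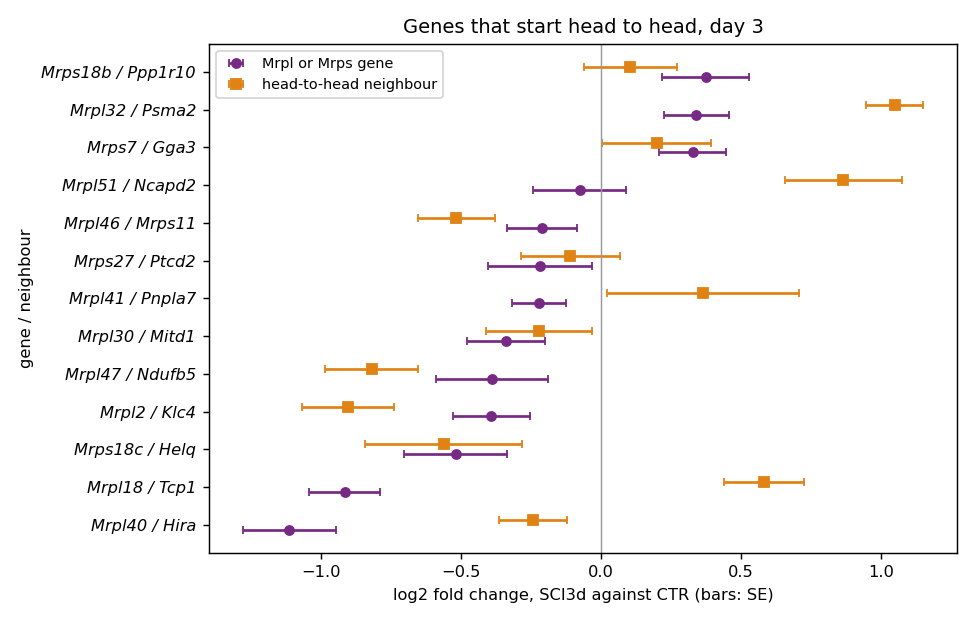
Log2 fold change on day 3 (SCI3d against CTR) of Mrpl or Mrps genes (circles) and of the measured gene that starts head to head with each within 1000 bases (squares); bars are the SE from limma. Mrpl18 lies at -0.92 and its neighbour Tcp1 at 0.58, whereas Mrpl32 and Psma2 both lie above 0.

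On day 8 the fold changes lay closer together and most were below 0. The mean was lower than in CTR in 65 of the 73 genes, beside 46.9% of all probe sets. At the threshold, 9 passed, all of them lower, where 3.28% of all probe sets were called lower and 3.01% higher. In the separate fit of the brighter 60% of probe sets, 6.37% were called lower. The median log2 fold change was -0.31 (quartiles -0.41 and -0.16), beside 0.04 over all probe sets. Mrps16 had the smallest p, with a signal of 2319, 3420 and 3549 in SCI8d, under every control, and a fall of 0.59 on the log2 scale (SE 0.13, adjusted p = 0.00539, limma). Mrpl54, a mitochondria-specific protein of the large subunit (probe set 1388853_at), went from 12779, 14109 and 15613 in CTR to 8047, 8823 and 12000 in SCI8d without overlap, a fall of 0.58 (SE 0.14, adjusted p = 0.00906, limma). Mrpl18 (-0.48), Mrpl50 (-0.54) and Mrpl16 (-0.68), which belongs to the core near the catalytic centre, were next, with adjusted p-values of 0.0189, 0.0311 and 0.0319 in the limma fit. Mrpl50 was 2661, 3785 and 4596 in CTR and 2178, 2471 and 3440 in SCI8d, and Mrpl16 was 2538, 4090 and 4864 against 1838, 2235 and 3814, so that both overlapped the controls. Mrps35, Mrpl19, Mrpl1 and Mrps33 completed the list, at -0.66 to -0.41. In all, 3 genes lay below every control (Mrpl54, Mrps16 and Mrps33, 1.54% of all probe sets) and 1 above (Mrpl33, 1.26%), which did not pass.

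The number of calls on day 8 depended on single arrays. It was 26 without SCI8d replicate 1, whose mean was -0.04, and 2 without SCI8d replicate 5. Without CTR replicate 1, 2, 5 or 6 or SCI8d replicate 4 or 6 it was 3, without SCI8d replicate 2 it was 4, and without CTR replicate 4 or SCI8d replicate 3 it was 5. Mrpl18 lost its call without SCI8d replicate 2 or 5, and Mrpl50 and Mrpl16 without any one of 8 and 9 arrays, with adjusted p-values of at most 0.0906. Averaged over its probe sets, Mrpl50 did not pass either (-0.38, adjusted p = 0.298, limma). Mrps16 and Mrpl54 kept theirs in all 12 of these fits.

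On day 14 the mean was lower than control in 71 of the 73 genes, beside 42.1% of all probe sets, and the median was -0.30 (quartiles -0.42 and -0.23), beside 0.08 over all probe sets. No gene rose, where 1.52% of all probe sets did, and 8 fell, where 1.67% of all did. In the separate fit of the brighter 60% of probe sets, 3.69% fell. The count of mitoribosomal genes in that fit is given with the processing alternatives below. Mrpl54 had the smallest p, at 6669, 8002 and 11375 in SCI14d, below all controls, a fall of 0.75 on the log2 scale (SE 0.14, adjusted p = 0.00201, limma). Mrpl40 was 1713, 3274 and 4289 in SCI14d, also below all controls, and fell by 0.91 (SE 0.17, adjusted p = 0.00208, limma). Together with Mrpl51, which did not pass, these were the 3 genes below every control, beside 1.21% of all probe sets. By the methods' t-test neither Mrpl40 (adjusted p = 0.0671) nor Mrps16 (0.0677) passed on day 14. Mrps16 fell by 0.57 (adjusted p = 0.0130), Mrpl27, which lies near the catalytic centre, by 0.43 (adjusted p = 0.0154) and Mrps18b by 0.61 (adjusted p = 0.0261) in the limma fit. Mrpl27 was 6419, 7915 and 8867 in CTR and 4553, 5682 and 7000 in SCI14d, overlapping at the ends. Mrpl4, Mrpl1 and Mrps14 were the others, at -0.56 to -0.44. The brighter probe set of Mrps14 passed on day 14 alone, whereas its second probe set fell by 0.77, 0.76 and 0.74 on days 3, 8 and 14 and passed each time.

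Counts on day 14 also turned on single arrays. Without SCI14d replicate 2, whose mean was 0.09, 25 genes passed and the median was -0.39. Leaving out SCI14d replicate 4, the lowest array, gave a median of -0.25. Without CTR replicate 1 or SCI14d replicate 4 the count was 3, and without CTR replicate 2 or 6 or SCI14d replicate 3 or 6 it was 4. Mrpl27 lost its call without CTR replicate 1 (adjusted p = 0.0511, limma) or SCI14d replicate 4 (0.0508), and Mrps18b without any one of CTR replicates 1, 2 and 6 and SCI14d replicates 3, 4 and 6, with adjusted p-values up to 0.0748.

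Across the 3 days, 49 of the 73 genes were never called lower. Mrpl54 and Mrps16 were lower on all 3 days. Mrpl18 and Mrpl16 were lower on days 3 and 8, Mrpl40 on days 3 and 14 and Mrpl1 on days 8 and 14, and 18 genes were lower on 1 day. The 3 comparisons share the control arrays. Medians on days 3, 8 and 14 were -0.22, -0.32 and -0.32 for the Mrpl genes and -0.16, -0.30 and -0.29 for the Mrps genes. Those with a bacterial homolog had medians of -0.18, -0.32 and -0.29, and the mitochondria-specific genes -0.21, -0.30 and -0.30. In the latter set the mean was lower in all 29 genes on both day 8 and day 14. Of the 73 genes, 18 have more than 1 probe set, and of the 24 probe sets that were not used, 19, 19 and 18 had the same sign as the one used on the 3 days. None was called in the opposite direction.

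**Figure D5:**
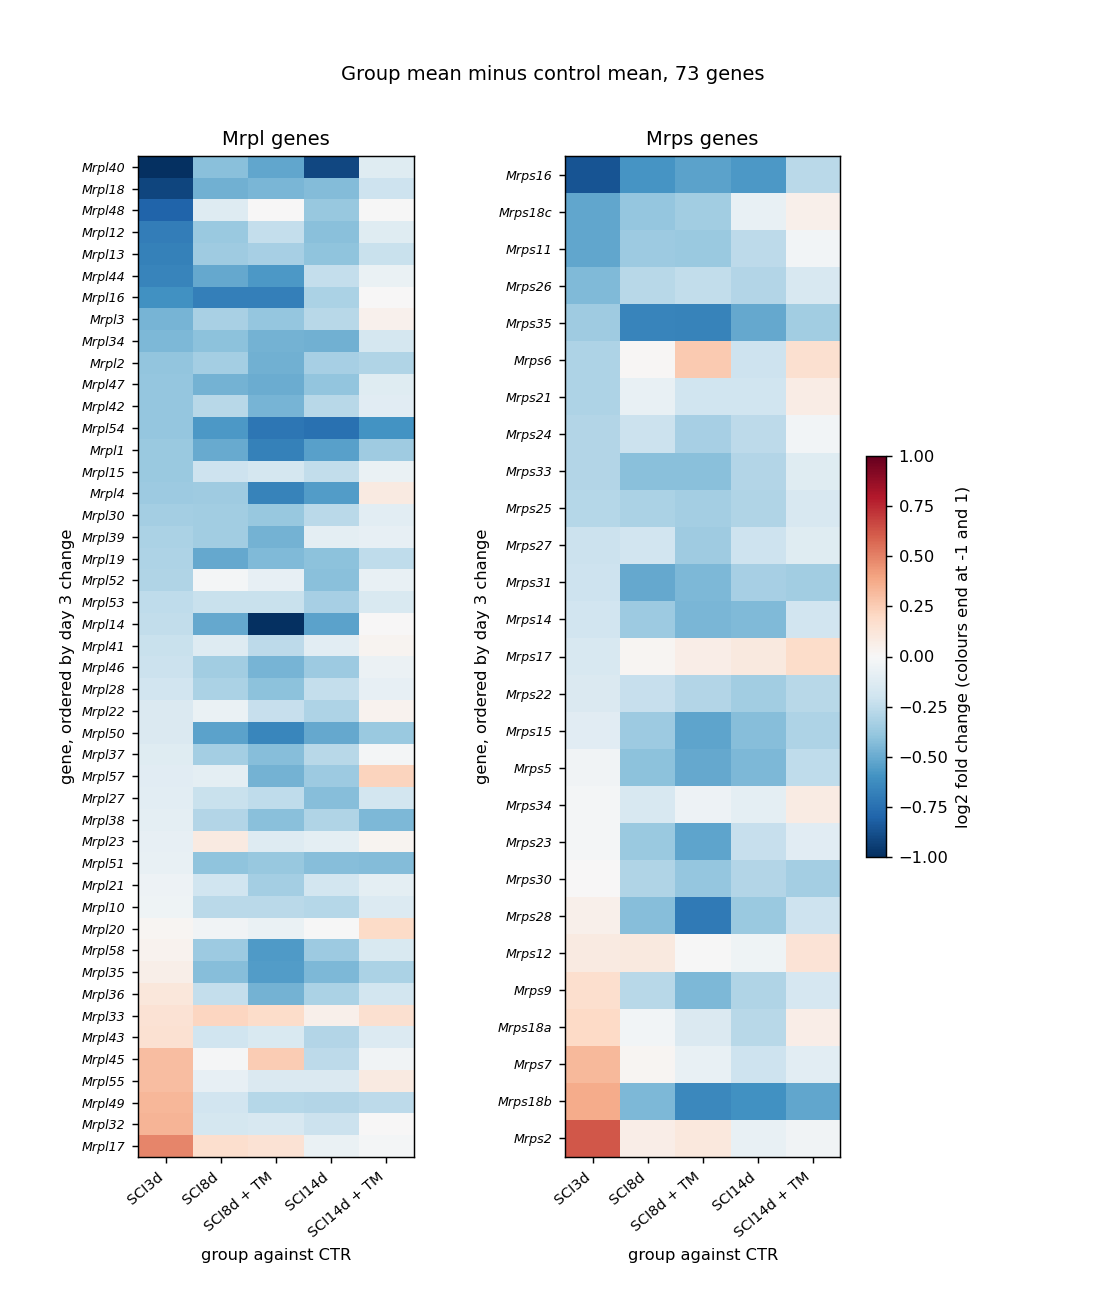
Log2 fold change against CTR of the 73 genes in the 5 injured groups, Mrpl genes on the left and Mrps genes on the right, each ordered by the day 3 value; blue is lower and red is higher than control, and colours end at -1 and 1. Mrpl54 and Mrps16 are blue in every column, whereas Mrps18b is red on day 3 (0.37) and blue on day 14 (-0.61).

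Day 14 was also compared with day 3 directly. From day 3 to day 14 without training, 13 genes fell and 1 rose (4.94% and 7.99% of all probe sets), with a median of -0.13 beside 0.13 over all probe sets. The median was -0.21 without SCI14d replicate 2 and -0.08 without SCI14d replicate 4. All 3 genes that were higher on day 3 were among the 13. Mrps2 fell by 0.69 (adjusted p = 0.00268), Mrpl17 by 0.56 (adjusted p = 0.00281) and Mrpl32 by 0.56 (adjusted p = 0.00151) in the limma fit. The day 3 arrays enter both tests, so these falls are not independent of the rises. Mrpl18 was the gene that rose, by 0.48 (SE 0.13, adjusted p = 0.00996, limma), after its fall on day 3.

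The 3 genes related to bacterial S18 had different courses. Mrps18a, which sits in the large subunit in spite of its name, was 3404, 3584 and 3930 in CTR, 3826, 4145 and 4688 in SCI3d and 2522, 2927 and 3896 in SCI14d. It passed against CTR on no day (adjusted p between 0.171 and 0.920, limma), but fell by 0.48 from day 3 to day 14 (adjusted p = 0.00424). Mrps18b was 4129, 5825 and 7040 in CTR, 5483, 7496 and 8420 in SCI3d and 2860, 3582 and 4493 in SCI14d. Its SCI3d and SCI14d arrays did not overlap, and from day 3 to day 14 it fell by 0.98 (SE 0.16, adjusted p = 7.49e-05, limma). Mrps18c was 1235, 1646 and 1742 in CTR and 724, 1052 and 1665 in SCI3d, overlapping ranges, with a fall of 0.52 on day 3 (adjusted p = 0.0488, limma) and values of -0.39 and -0.08 on days 8 and 14 that did not pass. Whether the 3 courses differ from each other was not tested.

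The second question was whether treadmill training changed these transcripts at the same day after injury. After 3 sessions (SCI8d + TM against SCI8d) none of the 73 genes passed, as was the case for all probe sets (0%), and 2 genes were lower at an unadjusted p under 0.05, as were 1.65% of all probe sets. The median was -0.06, between -0.11 without SCI8d + TM replicate 3 and -0.04 without SCI8d replicate 1. The smallest p-values belonged to Mrpl14 (-0.49), which lies at the interface of the subunits, Mrpl23 (-0.22) and Mrpl57 (-0.37), and the adjusted p rounded to 1 for each (limma). Mrpl14 was 1808, 2047 and 2659 in SCI8d and 1118, 1516 and 1964 in SCI8d + TM, overlapping ranges.

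After 5 days of training (SCI14d + TM against SCI14d) again none passed (0.00322% of all probe sets were called lower and 0% higher), but the mean was higher in 69 of the 73 genes, beside 45.8% of all probe sets. The median was 0.17 (quartiles 0.12 and 0.25), beside -0.03 over all probe sets. It was 0.12 without SCI14d replicate 4, the lowest array, and 0.26 without SCI14d replicate 2. At an unadjusted p under 0.05, 16 genes were higher and none lower, where 2.86% of all probe sets were higher. By the methods' t-test 9 were higher at an unadjusted p under 0.05. Of the 24 probe sets not used for a gene, 13 had the same sign as the one used. The mean was higher in all 44 genes with a bacterial homolog and in 25 of the 29 mitochondria-specific genes. Mrpl40 had the smallest p. It was 1713, 3274 and 4289 in SCI14d and 4276, 5250 and 6356 in SCI14d + TM, overlapping only at their ends, and the log2 fold change of 0.79 did not pass (SE 0.17, adjusted p = 0.118, limma). Without SCI14d replicate 1 it was 0.89 and passed (adjusted p = 0.0425, limma). In 11 of the 12 fits with an array left out Mrpl40 did not pass, with adjusted p-values up to 0.498 (limma). Its lowest value in these fits was 0.62, without SCI14d replicate 4. Mrpl4, a protein near the exit tunnel, was 2875, 3337 and 5921 in SCI14d and 4352, 6084 and 7072 in SCI14d + TM (0.65, adjusted p = 0.245, limma). Mrpl57 was 1711, 2300 and 5044 against 3267, 3703 and 4827 (0.58, adjusted p = 0.571, limma), and the ranges overlapped for both genes.

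Set against uninjured muscle, the trained groups differed in their counts. In SCI8d + TM, 30 genes were lower than CTR and none higher (5.71% and 6.48% of all probe sets), and the median was -0.38. The count was 19 without CTR replicate 2 or SCI8d + TM replicate 4 or 5. Of the 30, 18 were Mrpl and 12 Mrps genes. Mrpl14 had the largest fall of them (1.01, SE 0.23, adjusted p = 0.00332, limma), with controls at 2146, 2938 and 4054 and no overlap. Mrpl54 had the smallest p (-0.72, adjusted p = 0.000742, limma), at 7188, 8713 and 10184 in SCI8d + TM. Mrpl58, a ribosome rescue factor built into the large subunit, fell by 0.57, and Mrps15 by 0.53. In all, 19 of the 73 genes lay below all controls, beside 3.61% of all probe sets. In the same comparison the markers of other cells had medians of 1.94 (blood), 0.99 (fibroblast), 0.79 (fast fiber), 0.55 (macrophage), -0.11 (slow fiber), -0.40 (endothelial) and -1.50 (adipocyte). The mean of the endothelial markers ran from -0.70 to -0.27 on the SCI8d + TM arrays, under all controls (-0.22 to 0.20). That of the blood markers ran from 0.80 to 2.60, above all controls (-0.46 to 0.57). The part of these cell markers in the 30 calls was not tested. In SCI14d + TM, 1 gene was lower and none higher (0.0999% and 0.258% of all probe sets) at a median of -0.12, which was -0.06 without SCI14d + TM replicate 5. That gene was Mrpl54, at 7255, 9165 and 11660, below all controls, with a fall of 0.60 (SE 0.14, adjusted p = 0.0363, limma). The call was lost without CTR replicate 1, 2, 4 or 6 or SCI14d + TM replicate 2, 3, 5 or 6, which left a count of 0. At an unadjusted p under 0.05, 10 genes were lower in SCI14d + TM, beside 4.88% of all probe sets.

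Whether the effect of training differed between day 14 and day 8 was tested for each gene as an interaction. None of the 73 passed (0% of all probe sets did), 11 were higher at an unadjusted p under 0.05 (2.16% of all), and the median difference was 0.24, with 68 genes above 0 beside 44.2% of all probe sets. Here too the genes move together on an array, so these counts do not measure the spread between rats. The smallest adjusted p was 0.698 (limma), for Mrpl4, at 0.96 (SE 0.22).

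The Nduf genes, set beside these, had more calls and larger medians. On days 3, 8 and 14, 26, 17 and 15 of the 42 were lower than CTR and none was higher, with medians of -0.50, -0.44 and -0.46. Over all probe sets, 9.24%, 3.28% and 1.67% were called lower on those days. Ndufs1, the largest subunit of complex I, fell by 1.34, 0.96 and 0.69 on the 3 days, and Ndufa11 by 0.74, 0.77 and 0.76. On day 3 none of the 42 Nduf genes and 3 of the 73 mitoribosomal genes rose, where 7.22% of all probe sets were called higher. With 5 days of training the Nduf median was 0.21, the mean was higher in 39 of 42, beside 45.8% of all probe sets, and none passed. In SCI14d + TM against CTR the median was -0.23. The difference between the sets was not tested.

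Genes that work with the mitochondrial ribosome were followed from lists drawn up from their roles. Over all probe sets, 9.24%, 3.28% and 1.67% were called lower than CTR on days 3, 8 and 14. The shares called higher were 7.22%, 3.01% and 1.52%. In the fit of the brighter 60% alone, 15.8%, 6.37% and 3.69% were lower and 12.7%, 5.82% and 3.29% higher. Whether the counts below exceed these shares was not tested. Of 7 measured genes of the list of mitoribosomal and associated proteins with other symbols, 2, 3 and 1 were lower than CTR on days 3, 8 and 14 and none was higher. Ptcd3, a small-subunit protein, fell by 0.66 and 0.53 on days 3 and 8, and Aurkaip1, another, by 0.34 and 0.29 on days 8 and 14. Oxa1l, the inner membrane insertase that docks on the ribosome, fell by 0.42 and 0.52 on days 3 and 8. Of 12 translation factors, 3 fell and 1 rose on day 3, and none passed on days 8 and 14. The elongation factor Tufm fell by 0.43, the initiation factor Mtif2 by 0.53 and the ribosome rescue factor Mtres1 by 1.07 on day 3, while the release factor relative Mtrfr rose by 0.47. Of 23 assembly factors, 1 fell and 1 rose on day 3, the rRNA methyltransferase Mettl15 (-1.76) and the pseudouridine synthase relative Rpusd3 (0.81), and 3 and 1 fell on days 8 and 14. Nsun4, another rRNA methyltransferase, fell by 0.82 and the binding factor Rbfa by 0.65 on day 8.

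Of 18 factors of mitochondrial transcription and RNA processing, 5 fell and 3 rose on day 3, 6 fell on day 8 and 2 fell on day 14. The shares over all probe sets given for the other lists apply here too. Mtpap, the mitochondrial poly(A) polymerase, rose by 0.83, the tRNA 3' processing enzyme Elac2 by 0.72 and Trmt10c, of the 5' processing complex, by 0.47 on day 3, whereas Grsf1, of the RNA granules, fell by 0.64. On day 8 the mitochondrial RNA polymerase Polrmt and the mRNA-stabilizing Lrpprc fell by 0.72 each. Of 9 transcription regulators, 3 fell and 1 rose on day 3, and 1 fell on days 8 and 14. Esrra, which encodes ERR alpha, fell by 1.3, 1.14 and 1.19 on the 3 days (adjusted p = 6.53e-06, 0.000377 and 0.000423, limma), and it passed at each time. The coactivators Ppargc1a and Ppargc1b fell by 1.48 and 1.17 on day 3, while the related Pprc1 rose by 0.77. Of the other factors whose motifs were searched, the genes Nrf1 (0.32 on day 3), Gabpa (0.09) and Yy1 (0.10) did not pass on days 3, 8 or 14. The other GABP gene of the list, Gabpb1, had a mean signal of 1093 in CTR and 1550 in SCI3d, with overlapping ranges, and did not pass on day 3.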

How the data were processed

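Soleus RNA was hybridised to an Affymetrix rat expression array, 1 per rat. The deposited intensity values are linear signals that the authors generated with MAS5 and scaled per array. Without its lowest and highest 2%, each array averaged 800.3 to 800.4, so that only relative levels are kept. No probe-level files were used here. Of 31099 probe sets in the table, 57 controls were left out and 31042 tested, of which 20826 had 1 gene symbol, 436 several and 9780 none in the platform annotation. All 73 gene IDs matched RefSeq with the same symbol.

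Signals were taken to log2 and fitted in 1 model of the 6 groups with limma 3.58.1 in R 4.3.3 (lmFit, eBayes with an intensity trend, 30 residual degrees of freedom), two-sided, with Benjamini-Hochberg adjustment over all probe sets and calls at an adjusted p under 0.05. The number of arrays limits the precision. Python 3.11.15 drew the figures. The fit was tested on simulated data. Genes named with values were, per comparison with CTR and per training comparison, the 5 called genes of smallest p in each direction, or 3 where fewer passed, plus the 3 brightest and the 3 dimmest and the Mrps18 genes, and others are named from the lists or after their values were seen. Partner and Nduf genes were named by smallest p among those called, up to 4 per comparison. Members and lists were chosen with earlier results of these data known. The list of proteins with other symbols also held 2 older names, for genes counted among the 73. Alternatives were other scalings, an offset of 32, no dim probe sets, no trend, a replicate block, replicates 5 and 6 as a batch, averaging all probe sets of a gene, the methods' t-test, the groups compared alone and each array left out. The methods call probe sets at a t-test p under 0.05 and name no adjustment. Here the Benjamini-Hochberg adjustment was added to that t-test unless a p is called unadjusted. Leaving out arrays with a Gapdh ratio over 1.3 was added after the data were seen. Replicate numbers were set against each other between groups, and the rats were treated as unpaired. Differently numbered arrays were not correlated for reference, so shared handling of same-numbered arrays was not tested.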

Additional observations from a re-analysis of the deposited data

Results flagged for a closer look

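In 8 of the 114 sets of 6 arrays that were checked, 1 array stood apart from the other 5, its gap to the nearest being larger than Dixon's 95% limit for 6 samples, as a share of the whole range. Chance gives about 1 in 20 such sets. SCI8d replicate 1 stood apart in the mean over the 73 genes (-0.04 against -0.37 to -0.26 in the others, a gap of 0.664 of the range) and for Mrpl16 (0.642), in both cases as the highest. CTR replicate 3 was the lowest control for Mrpl17 (0.859) and Mrpl18 (0.639), and its Gapdh 3' to 5' ratio was 1.61. SCI14d replicate 4 was the lowest for Mrpl40 (0.642), at a ratio of 1.35. The lowest arrays of their groups were also SCI8d replicate 2 for Mrps16 (0.761), SCI8d replicate 4 for Mrps18b (0.706) and SCI8d + TM replicate 2 for Mrpl27 (0.713).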

How the results depend on the processing

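The medians of the mitoribosomal genes and the fold changes of the genes named by p-value kept their sign under the alternatives run. The direction of other single calls was not checked. The median of all probe sets, printed beside them, did change sign with median centring in each of the 9 comparisons, as for SCI3d against CTR (-0.04 to 0.06), SCI8d against CTR (0.04 to -0.03) and SCI14d against CTR (0.08 to -0.05). For SCI8d against CTR, 9 genes passed, but 5 with quantile normalization or without the intensity trend, 15 without the 3 arrays of Gapdh ratio over 1.3, and 4 by the methods' t-test after adjustment (1 higher, 3 lower; 41 lower and 1 higher unadjusted). For SCI14d against CTR, 8 became 5 with quantile normalization, without the trend, without those 3 arrays or in a fit of these groups alone, 23 with median centring, 14 without the dimmest 40% of probe sets and 2 by the t-test. The fit without the dimmest 40% also gave the shares of the brighter 60%, so the 14 genes belong beside its 3.69%. For SCI14d against SCI3d, 14 became 26 with median centring, 6 in a fit of these groups alone and 3 by the t-test, all of them lower. For SCI8d + TM against CTR, 30 became 48 with median centring, and the median went from -0.38 to -0.53. For SCI14d + TM against CTR, 1 became 0 without the trend and by the t-test. Median centring changed the day 3 calls from 15 lower and 3 higher to 9 lower and 4 higher, and moved the median of all probe sets from 0.13 to -0.10 for SCI14d against SCI3d.

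With single arrays left out, the counts ran from 12 to 20 for SCI3d, 2 to 26 for SCI8d and 3 to 25 for SCI14d against CTR, and from 10 to 18 for SCI14d against SCI3d. They ran from 19 to 33 for SCI8d + TM and from 0 to 1 for SCI14d + TM against CTR, from 0 to 1 for SCI14d + TM against SCI14d, and were 0 for SCI8d + TM against SCI8d and the interaction. The median fold changes against CTR had limits of -0.27 and -0.15 (SCI3d), -0.38 and -0.28 (SCI8d), and -0.39 and -0.25 (SCI14d). For SCI14d + TM against SCI14d they were 0.12 and 0.26. For SCI14d + TM against CTR they were -0.15 and -0.06, for SCI14d against SCI3d -0.21 and -0.08, and for SCI8d + TM against SCI8d -0.11 and -0.04. Over the other alternatives, the calls of the named genes were kept 182 times and lost 16 times, 9 of them by the t-test.

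Same-numbered arrays of different groups correlated at -0.12 to 0.23 (6 of 90 pairs over 0.1). With the replicate number as a block, 19, 10 and 10 genes passed against CTR on days 3, 8 and 14, 16 for SCI14d against SCI3d, 30 and 1 for the trained groups against CTR, and none for training or its interaction. An alternative without arrays of Gapdh ratio over 3 was not run because no array exceeded it, nor was the t-test for the interaction. In RefSeq, 21 of the 73 genes have a pseudogene, which a probe set could also read.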
